A study of Mus musculus with 5 samples.

Results

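The 10 genes described here encode components, regulators and receptors of the complement system: C1qa, C1qb, C1qc, C3, C4b, C3ar1, C5ar1, Itgam, Serping1 and Cfb. They were taken as a list of named genes, and all 10 were found among the 32285 genes of every library. The complement cascade tags surfaces for uptake by phagocytes. In the classical pathway C1q binds a target and sets off cleavage of C4 and C2, in the alternative pathway factor B amplifies the response, and both meet at C3, whose fragments are read by receptors on myeloid cells. In the brain, microglia are known as the main makers of C1q, and C1q and C3 are known for marking synapses that microglia remove during development and disease.

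The data were single-nucleus RNA-seq counts from 5 mouse libraries, labelled as hippocampus where the methods of the study speak of brain, 1 mouse each. In both groups the mice carried the Tmem119-creERT2 driver, a tamoxifen-inducible Cre whose action, per the study, falls mainly on microglia and on macrophages of the brain. The 2 R241E mice carried in addition 1 Cgas allele that Cre switches to the R241E form, a cGAS that no longer binds nucleosomes well and is therefore active, with tamoxifen given to young adults. The 3 WT mice had wild-type Cgas by their titles, although the study's results name its controls for this experiment differently. A treatment text on H151 and DMSO in aged mice accompanies each sample, but no label assigns either. Counts summed from the 3′ end cannot show the point change in Cgas, so genotype rests on the labels.

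Nuclei negative for NeuN and Olig2 had been sorted to enrich microglia, so neurons and oligodendrocytes in the data are those that passed that gate. The libraries held 4183709 to 10130667 UMIs (unique molecular identifiers, each counting 1 captured RNA molecule), and 9505 of 9748 nuclei were kept. Nuclei were clustered without any complement gene and clusters were named from marker genes, so each class name is short for nuclei that resemble it. The 5382 microglia had all 10 of their markers in at least 10% of nuclei, and the 343 border-associated macrophages, the phagocytes of the meninges and vessel walls, all 8 of theirs. The class called monocytes or neutrophils (203 nuclei) had 6 of its 8 markers at that share and was led in part by antigen-presentation and immunoglobulin genes. Libraries shared 13 barcodes among them. Levels are given as CPM, the UMIs of a gene per 1000000 UMIs summed over the nuclei of a class in 1 library. CPM is compared here between samples and classes, not between genes.

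The 3 C1q genes lie side by side on chromosome 4 of GRCm38.p6 (the assembly of the mm10 build used for the files), C1qb at chr4:136880126-136886200, C1qc at chr4:136889801-136892936 and C1qa at chr4:136895916-136898844. C4b (chr17:34728139-34743902) and Cfb (chr17:34856374-34862514) lie in the major histocompatibility region of chromosome 17 and C3 (chr17:57203967-57228136) further along it. Between C4b and Cfb lies C4a (chr17:34809092-34823460), annotated as a transcribed pseudogene that is nearly identical to C4b, so that reads shared by both would be lost or misplaced. C4a was counted with 18 UMIs in all kept nuclei and C4b with 902. The other members lie on chromosome 2 (Serping1), 6 (C3ar1) and 7 (C5ar1 and Itgam).

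Promoter sequences from RefSeq, reaching from 250 bases before to 50 bases after the annotated start, were at hand for 6 of the 10 members: C1qb, C1qc, C3, C3ar1, C5ar1 and Itgam. They were searched on both strands for 3 short motifs: the core of the interferon-stimulated response element (GAAA, any 2 bases, GAAA), the gamma-activated site (TTCNNNGAA) and a form of the core bound by the myeloid factor PU.1 (GAGGAAGT). None of the 6 promoters held the first motif and none the second, which occurred in 3.44% and 8.30% of all 32851 promoters of that length. The third occurred once, in the promoter of C1qc, and in 3.20% of all promoters. The promoters of C1qb and C1qc are shown because these were the members with a promoter entry that were called higher in R241E microglia. Both are written 5′ to 3′ on the minus strand of GRCm38.p6, at chr4:136886151-136886450 and chr4:136892865-136893164, with the match on the opposite strand in capitals, at offset -195 from the start.

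C1qb: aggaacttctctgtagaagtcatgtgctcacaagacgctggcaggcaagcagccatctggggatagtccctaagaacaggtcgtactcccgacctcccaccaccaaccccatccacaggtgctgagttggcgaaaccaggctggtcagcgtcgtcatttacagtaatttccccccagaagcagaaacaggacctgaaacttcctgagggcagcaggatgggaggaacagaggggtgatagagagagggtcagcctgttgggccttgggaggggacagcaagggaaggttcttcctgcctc
C1qc: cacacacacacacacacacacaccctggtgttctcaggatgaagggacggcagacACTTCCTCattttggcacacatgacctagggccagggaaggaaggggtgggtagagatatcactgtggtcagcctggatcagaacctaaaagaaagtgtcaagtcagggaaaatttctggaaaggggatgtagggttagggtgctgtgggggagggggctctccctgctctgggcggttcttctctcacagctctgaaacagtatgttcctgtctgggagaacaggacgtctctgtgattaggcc

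By cell class, the members fell into 4 patterns, which the map of mean levels shows. The C1q genes, whose products form the 3 chains of the C1q molecule, were highest in the phagocytes. C1qa averaged 612 ± 305 CPM in microglia and 616 ± 280 in border-associated macrophages (SD, n = 5 libraries), which overlapped fully, and 409 ± 225 in monocytes or neutrophils. C1qb averaged 706 ± 369, 631 ± 217 and 431 ± 215 CPM in the same classes, and C1qc 737 ± 285, 724 ± 237 and 410 ± 182. Ranges over libraries overlapped between microglia and border-associated macrophages for all 3 chains. Microglia held 86.4% of all C1qa UMIs in kept nuclei, 87.7% of those of C1qb and 88.4% of those of C1qc.

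**Figure D1:**
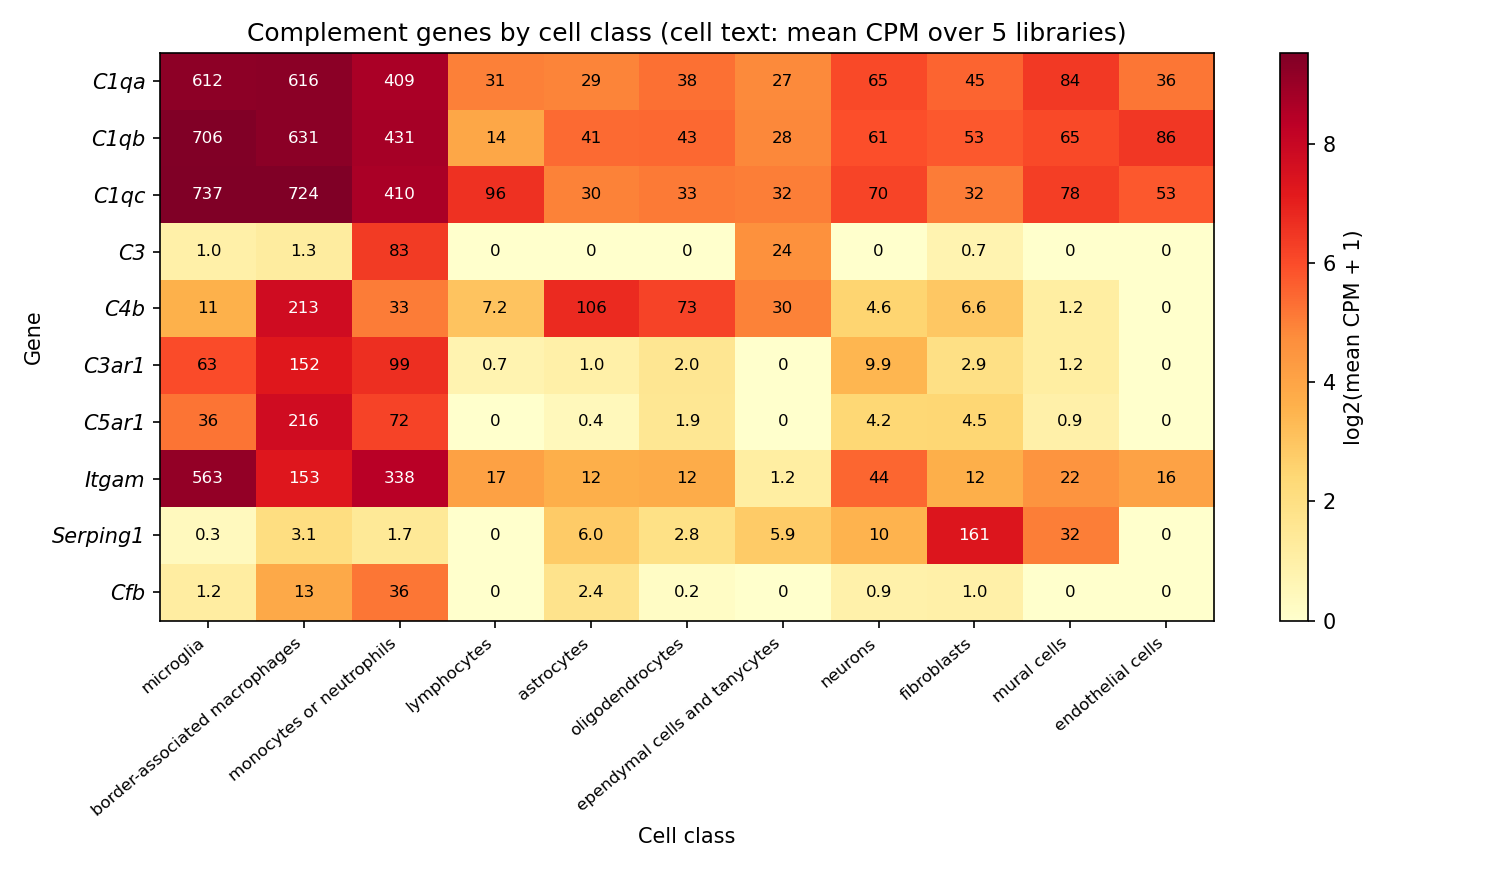
Heat map of the 10 complement genes (rows) in 11 named cell classes (columns), coloured by log2(mean CPM + 1), with the mean CPM over the 5 libraries written in each cell. C1qa, C1qb and C1qc stand at 409 CPM or more in the 3 phagocyte classes and below 100 elsewhere, while Serping1 is highest in fibroblasts and C4b in border-associated macrophages.

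Outside the phagocytes, C1q transcripts were counted in every class at a low level. In astrocytes the 3 chains averaged 4.56 to 7.54% of their microglial CPM, and 5 microglial reference genes (P2ry12, Cx3cr1, Csf1r, Selplg and Siglech) averaged 1.70 to 8.88% of theirs. In oligodendrocytes the ranges were 4.51 to 6.93% for C1q and 1.55 to 4.09% for the reference genes, and in neurons 9.97 to 13.1% and 7.55 to 16.1%. In fibroblasts C1q stood at 4.35 to 8.68% and the reference genes at 1.66 to 3.68%, and in the 60 endothelial nuclei at 8.69 to 19.3% and 0.769 to 5.62%. In mural cells the ranges were 10.98 to 15.6% and 4.76 to 11.5%. In border-associated macrophages, by contrast, C1q stood at 98.5 to 109% of the microglial level and the reference genes at 5.16 to 76.1%. In monocytes or neutrophils C1q stood at 55.1 to 67.2% and the reference genes at 14.5 to 50.4%. The part of microglia-like nuclei in the C1q of that class was not tested. The split of C1q UMIs among the chains was close in the 2 main phagocyte classes, with 29.6% C1qa, 33.9% C1qb and 36.5% C1qc in microglia and 31.1%, 32.3% and 36.5% in border-associated macrophages. The C1q and reference ranges overlapped in astrocytes, neurons and mural cells, and C1q lay wholly above the reference range in oligodendrocytes, fibroblasts and endothelial cells, a gap that was not tested. In the classes with overlap no expression of C1q is read from the low values.

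The receptors were highest in the myeloid classes. Itgam, the alpha chain of complement receptor 3 (CD11b), averaged 563 ± 22.3 CPM in microglia and 338 ± 59.8 in monocytes or neutrophils, with ranges that did not overlap, and 153 ± 44.6 in border-associated macrophages. C5ar1, the receptor for the C5a fragment, was highest in border-associated macrophages at 216 ± 64.7 CPM, against 71.7 ± 27.9 in monocytes or neutrophils and 36.4 ± 5.37 in microglia, and the first of these ranges overlapped neither of the others. C3ar1, the receptor for the C3a fragment, averaged 152 ± 35.3 CPM in border-associated macrophages, 99.3 ± 46.1 in monocytes or neutrophils and 62.8 ± 5.11 in microglia, the first of these overlapping the second. In astrocytes, oligodendrocytes and mural cells C3ar1 had 3, 5 and 2 UMIs in all.

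Serping1, which encodes the inhibitor of the C1 proteases, was a gene of stromal cells here. It averaged 161 ± 34.1 CPM in fibroblasts, with 290 of its 390 UMIs, and 31.7 CPM in mural cells, without overlap between their ranges. Microglia held 4 Serping1 UMIs, 1 of them in 4630109 R241E UMIs and 3 in 10149470 WT UMIs. C3 and Cfb (complement factor B) were sparse, with 58 and 59 UMIs in all kept nuclei. Monocytes or neutrophils held 39 of the C3 UMIs and 16 of those of Cfb, where C3 ranged from 0 to 160 CPM and Cfb from 0 to 110.1 CPM over libraries. C4b, the C4 of the classical pathway, was counted mainly in border-associated macrophages (213 ± 128 CPM), astrocytes (106 ± 50.6) and oligodendrocytes (72.9 ± 86.6), the large SDs spanning both genotypes.

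R241E was compared with WT on UMIs summed per library and class in the 7 classes that had at least 20 nuclei in every library, with edgeR's quasi-likelihood test and Benjamini-Hochberg adjustment over all genes tested in the class (called at an adjusted p under 0.05). In microglia 9.32% of 12730 genes were called, so a called gene was not rare there. Of the 10 members, 7 passed the filter on low counts in microglia and 4 were called, all higher in R241E: C4b, C1qa, C1qb and C1qc. C4b passed that filter only through the R241E libraries, so its call follows in part from the filter and supports nothing beyond its counts. C3ar1, C5ar1 and Itgam were tested and not called, and C3, Cfb and Serping1 had too few UMIs to be tested. The plot of the members in microglia shows each library.

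**Figure D2:**
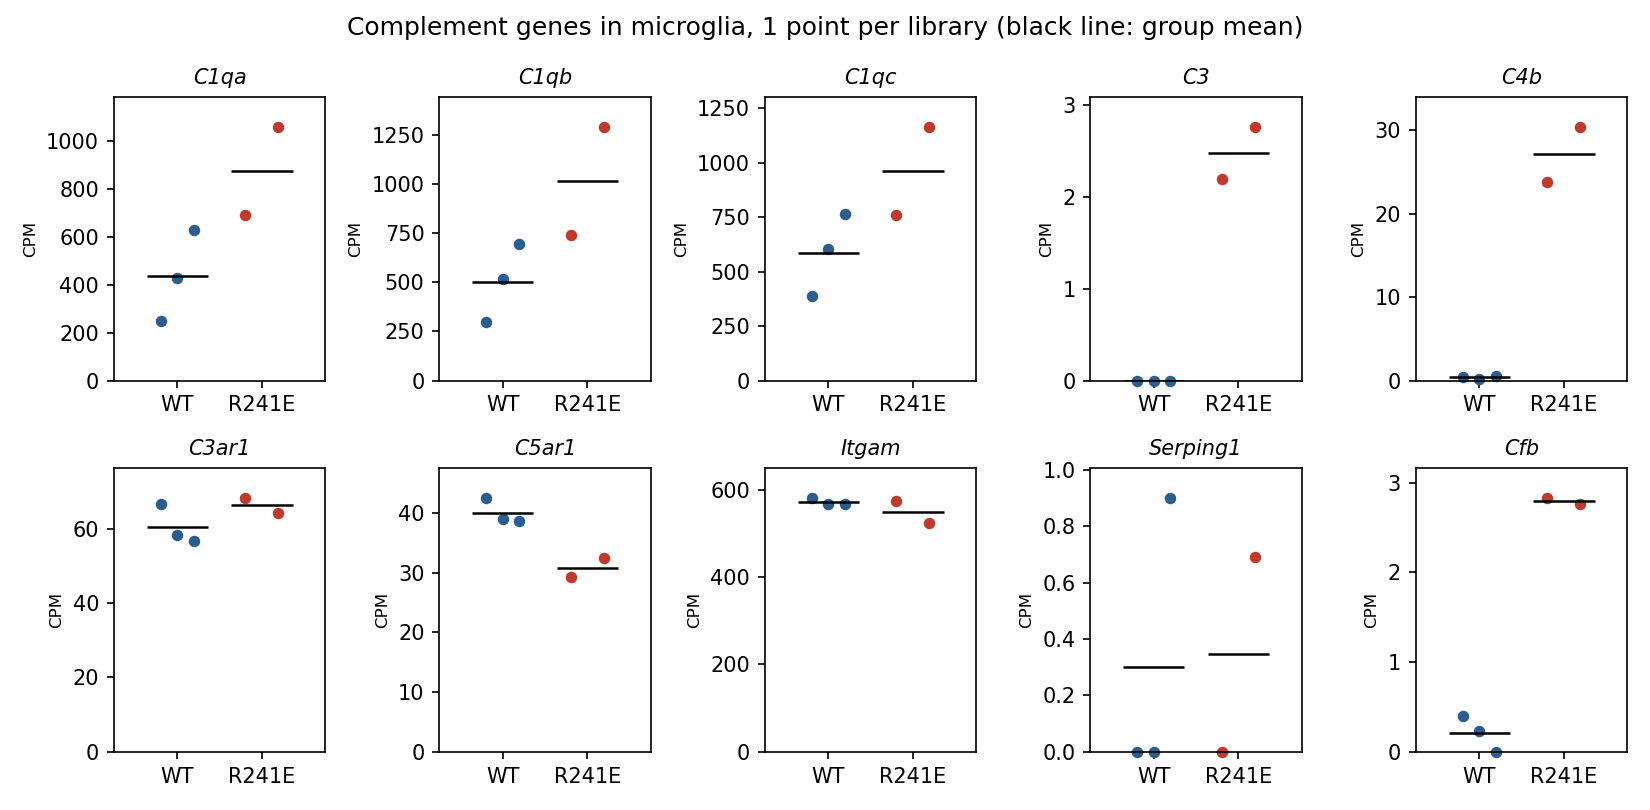
CPM of each of the 10 members in microglia, 1 panel per gene with its own axis from 0, blue points for the 3 WT and red points for the 2 R241E libraries, and black lines at the group means. C4b stands at 23.9 and 30.4 CPM in R241E and below 1 in WT, C1qa and C1qb are higher in both R241E libraries, and Itgam and C3ar1 overlap between groups.

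C4b had the largest difference. Microglia of R241E replicates 1 and 2 held 76 and 44 C4b UMIs, or 23.9 and 30.4 CPM, and those of WT replicates 1 to 3 held 1, 1 and 2 UMIs, or 0.404, 0.231 and 0.599 CPM. The groups lay far apart. The ratio of pooled C4b counts was 65.8, with a 95% interval of 25.0 to 245 that covers counting error only. On the log2 scale the fitted difference was 5.91 ± 0.40 (SE), at an edgeR adjusted p = 7.9e-08, and since it rests on 4 WT UMIs it is given as a description.

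C4b UMIs were found in few microglial nuclei. At median depths of 3056 and 2572 UMIs in R241E replicates 1 and 2, a nucleus without a C4b UMI may still hold the transcript. The counts below therefore do not give the share of nuclei that express C4b. A C4b UMI was found in 63 of 1006 and 29 of 525 R241E nuclei and in 1 of 926, 1 of 1472 and 2 of 1453 WT nuclei, with at most 4 UMIs in a nucleus. With each nucleus thinned to 1000 UMIs, the C4b share was 1.81% (exact 95% interval 1.07 to 2.84) and 2.00% (0.965 to 3.65) in R241E. It was 0% of 903 nuclei in WT replicate 1, where the interval reached 0.408%, and 0.0691% and 0.0720% in WT replicates 2 and 3. In mural cells, which had 2 C4b UMIs in all, the thinned share was 0 in all 5 libraries, at median depths of 1288 to 2124 UMIs against 2061 to 3056 in microglia. The genotypes did not overlap, but the exact permutation test over libraries cannot go below p = 0.1 with 2 against 3, and C4b reached that p (two-sided, 0.333 after adjustment over the 10 members).

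Markers of other cells moved with genotype in the microglial sums and were measured beside C4b. Of the 15 other marker lists, 4 were higher in both R241E libraries than in all WT libraries: those of oligodendrocytes (259.8 and 388 CPM against 167 to 189), of monocytes or neutrophils (739 and 641 against 560.2 to 583), of lymphocytes (14.1 and 8.99 against 2.43 to 5.69) and of mural cells (18.2 and 27.0 against 10.9 to 16.1). Astrocytes and border-associated macrophages, the other classes with much C4b, did not show this, at 289 to 319 CPM against 282 to 354 and at 98.3 to 143 CPM against 211 to 240.8. In R241E microglia with and without a C4b UMI, the lists of oligodendrocytes, astrocytes and border-associated macrophages were compared, and the part of the other lists in the C4b difference was not tested. In nuclei with C4b the oligodendrocyte list stood at 222 and 232 CPM in R241E replicates 1 and 2 against 263 and 399 in nuclei without C4b, the astrocyte list at 226 and 232 against 327 and 293, and the border-associated macrophage list at 93.9 and 52.8 against 98.7 and 149.

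The C1q chains rose by less and with more spread. C1qa stood at 693 and 1059.9 CPM in R241E microglia and at 249, 429 and 628 in WT, without overlap (log2 fold change 0.98 ± 0.25, edgeR adjusted p = 0.018). C1qb stood at 739 and 1289 CPM against 296, 515 and 694, also without overlap (0.98 ± 0.25, edgeR adjusted p = 0.019). C1qc stood at 760.4 and 1165 CPM against 387, 605 and 766, so that R241E replicate 1 lay just below WT replicate 3 (0.69 ± 0.20, edgeR adjusted p = 0.047). Spread within a genotype was wide, with C1qa at 876 ± 259.5 CPM in R241E (SD, n = 2) and 435 ± 189.6 in WT (SD, n = 3). Of the 7 members tested, 3 had both R241E libraries above all WT libraries, against 20.2% of all genes tested in microglia. These were C4b, C1qa and C1qb. C4b passed the filter on low counts only through the R241E libraries, so its place among the 3 follows in part from the filter. The reverse order was seen in 1 member, C5ar1, against 17.7% of all genes tested.

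The C1q calls depended on single libraries and on the tool. Without R241E replicate 2 none of the chains was called, with edgeR adjusted p of 0.241 for C1qa, 0.325 for C1qb and 0.484 for C1qc. Without WT replicate 1 C1qb and C1qc were not called (0.053 and 0.142), and without WT replicate 2 C1qa and C1qc were not (0.052 and 0.093). DESeq2's Wald test called none of the 3, at adjusted p of 0.357, 0.353 and 0.485. The direction was higher in R241E in all of these fits.

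Other measures of the microglial libraries moved with genotype beside C1q. Ribosomal protein transcripts made up 0.690% and 0.864% of microglial UMIs in R241E and 0.361%, 0.393% and 0.552% in WT, and mitochondrial transcripts 0.0901% and 0.0942% against 0.0550% to 0.0672%. Malat1, a nuclear RNA, made up 3.74% and 3.79% in R241E and 4.06% to 4.71% in WT. Ctss, a lysosomal protease gene of microglia, stood at 1364 and 1617 CPM in R241E, against 552, 671 and 756 in WT. Cst3, which encodes a protease inhibitor, overlapped, at 2546 and 5201 CPM against 1159.6, 2520.2 and 3953. The order of the 5 libraries in C1qa was the same as in ribosomal protein share. The part of these measures in the C1q difference was not tested.

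Different clusters held the microglia of each genotype, as the plot by cluster shows. Cluster 0 held 78.0%, 65.9% and 41.5% of WT microglia and 1.49% and 7.24% of R241E microglia, and cluster 1 held 18.9%, 28.8% and 50.4% against 7.85% and 14.1%. Cluster 2 held 53.5% and 36.2% of R241E microglia and 2.05% to 3.46% of WT. Cluster 5, led by Ctss and the C1q genes, held 14.7% and 25.1% of R241E and 0.648%, 1.49% and 4.27% of WT microglia. Cluster 8, led by interferon-response genes such as Ifi204 and Oas2, held 22.5% and 17.3% against 0.340% to 0.432%. The clusters were made from these nuclei, so the values within them are a description.

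**Figure D3:**
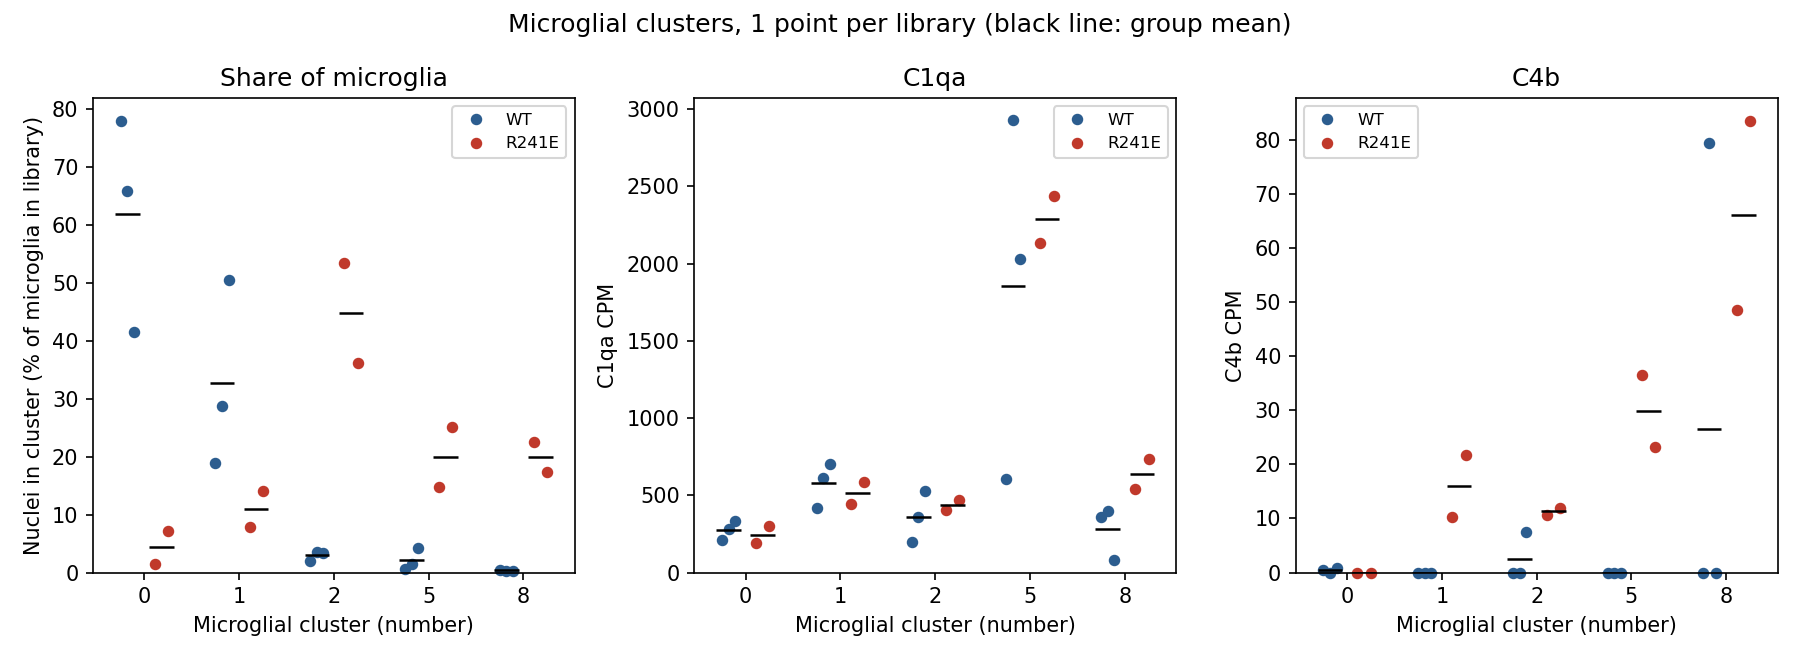
The 5 microglial clusters (x axis, by number) with the share of each library's microglia in them, the C1qa CPM and the C4b CPM, 1 point per library (blue WT, red R241E) and black lines at group means. C1qa is highest in cluster 5 in every library and overlaps between genotypes in all clusters but 8, where WT nuclei are few. R241E libraries have C4b in clusters 1, 2, 5 and 8. The WT point at 79.4 CPM of C4b in cluster 8 is 1 UMI in 5 nuclei.

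Within a cluster, C1qa overlapped between genotypes in 4 of the 5. It stood at 444 and 589 CPM in R241E against 418, 615 and 701 in WT in cluster 1, and at 407 and 469 against 195, 359 and 529.5 in cluster 2. In cluster 5 it stood at 2132 and 2440.4 CPM in R241E against 607, 2930.1 and 2030.0 in WT, the first of these WT values from 6 nuclei. In cluster 0, with 15 and 38 R241E nuclei, C1qa was 189 and 302 CPM against 209.6, 285 and 336. In cluster 8 the R241E values of 542 and 735 CPM lay above 82.2 to 397 in WT, which had 4 or 5 nuclei per library there. C4b stood in R241E at 48.5 and 83.6 CPM in cluster 8, where WT replicate 2 stood at 79.4 from 1 UMI. It stood at 36.5 and 23.2 CPM in cluster 5 against 0 in WT, at 10.7 and 11.9 in cluster 2 against 0, 0 and 7.56, and at 0 in cluster 0, where 2 WT libraries held a C4b UMI. In cluster 1 it stood at 10.3 and 21.8 CPM, where no WT library held a C4b UMI in its 175, 424 and 733 nuclei.

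C3 and Cfb were counted almost only in R241E among microglia, at very low levels. C3 had 7 and 4 UMIs in R241E microglia and none in 10149470 WT UMIs. Its ratio of pooled counts had a counting interval with a lower limit of 5.50. Set against an assumed floor of 3 UMIs over the WT group, the ratio was 8.04, which is not a lower limit. Cfb had 9 and 4 UMIs in R241E and 1, 1 and 0 in WT, a ratio of pooled counts of 14.2 with a counting interval of 3.23 to 130.1. Neither had enough UMIs for the filter, and no test is given for either. In monocytes or neutrophils, also without a test, C3 went the other way, with 10 UMIs in R241E and 29 in WT. Cfb had 9 and 7 there, out of 219072 R241E and 221484 WT UMIs in that class. Serping1 had 0 and 1 UMIs in R241E and 0, 0 and 3 in WT microglia. In thinned nuclei, 2 of the 7 members tested had a higher share in both R241E libraries than in all WT libraries (C1qa and C4b), against 17.6% of all genes tested in microglia. Of these, C4b passed the filter only through the R241E libraries. C3 and Cfb, which were not tested and lie outside that percentage, had higher shares too, making 4 of the 10 members.

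None of the 3 member receptors was called in microglia. C3ar1 stood at 68.2 and 64.3 CPM in R241E against 66.7, 58.3 and 56.6 in WT (log2 fold change 0.13 ± 0.13, edgeR adjusted p = 0.676). Itgam stood at 575 and 524 CPM against 580, 568 and 566 (-0.07 ± 0.09, edgeR adjusted p = 0.746), a ratio of pooled counts of 0.980 with a counting interval of 0.935 to 1.03. C5ar1 stood at 29.2 and 32.5 CPM in R241E against 42.5, 39.0 and 38.6 in WT, without overlap, but was not called (-0.41 ± 0.16, edgeR adjusted p = 0.147). The ratio of pooled C5ar1 counts was 0.762, with a counting interval of 0.624 to 0.925.

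Nuclei with many interferon-response transcripts had more C4b, while C1q differed little between them and nuclei with few. R241E microglia were divided by their UMIs of 28 interferon genes, a list the study used to score these nuclei, after thinning to 1000 UMIs: 431 and 182 nuclei had at least 3 (high) and 387 and 242 had at most 1 (low). C4b stood at 33.1 and 60.3 CPM in high nuclei of R241E replicates 1 and 2 and at 16.5 and 14.8 in low nuclei, a ratio of 2.00 and 4.09. The 179 and 75 nuclei between these limits held 10 and 0 C4b UMIs, or 17.5 and 0 CPM, the 0 resting on 75 nuclei of R241E replicate 2. When nuclei were thinned to 500 UMIs, C4b rose from low to between to high in both libraries. It then stood at 16.81, 20.96 and 46.78 CPM in R241E replicate 1 and at 12.04, 37.73 and 101.1 in replicate 2. Whether C4b rose steadily with the interferon count therefore depended on the depth of thinning. The low nuclei were still above all WT microglia, which had 0.231 to 0.599 CPM. C5ar1 stood at 33.1 and 32.9 CPM in high against 22.3 and 23.6 in low nuclei, and at 33.2 and 64.2 CPM in those between. With nuclei thinned to 500 UMIs, the C5ar1 ratio of high to low fell from 1.48 and 1.39 to 1.06 and 1.146. C1qa stood at 630.2 and 1001 CPM in high against 694 and 979 in low nuclei, and at 848 and 1531 CPM in those between. The ratio of high to low lay between 0.908 and 1.04 over the 3 chains and both libraries, and with a limit of at least 2 list UMIs between 0.999 and 1.17. With nuclei thinned to 500 UMIs the C1q ratio lay between 0.849 and 1.02, so its direction depended on the setting. C3ar1 stood at 62.5 and 64.0 against 66.8 and 65.0, and Itgam at 542 and 521 against 600 and 534. C3 had 4 and 3 UMIs in high nuclei of the 2 libraries and 1 and 0 in low ones. With 2 libraries and nuclei that are not replicates, these values have no test.

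**Figure D4:**
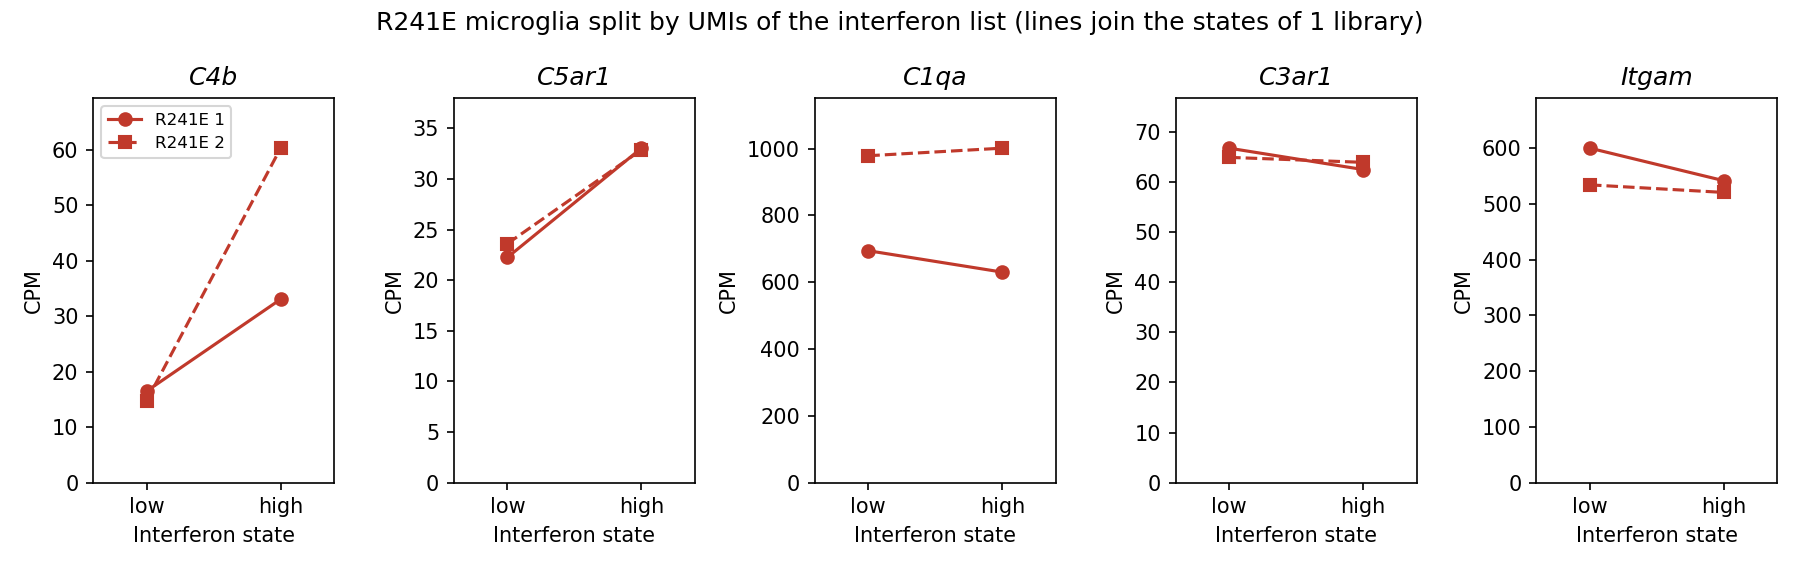
CPM of 5 members in R241E microglia with at most 1 (low) or at least 3 (high) UMIs of the interferon list, each axis from 0, circles and solid lines for R241E replicate 1 and squares and dashed lines for replicate 2. C4b and C5ar1 are higher in high than in low nuclei in both libraries, and the C1qa and Itgam lines are close to flat; nuclei with 2 list UMIs are not drawn.

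Among border-associated macrophages, 0.912% of 3948 genes were called, and C4b was the only 1 of 7 members tested that was. It stood at 366 and 330.2 CPM in R241E against 150.3, 68.9 and 149.5 in WT, without overlap (log2 fold change 1.52 ± 0.27, edgeR adjusted p = 0.0028). The C4b call was lost without WT replicate 2 (edgeR adjusted p = 0.084), with nuclei thinned to 1000 UMIs (0.057) and with DESeq2 (0.053), with the same direction. A C4b UMI was found in 26.7% and 27.3% of these nuclei in R241E and in 12.96%, 10.2% and 14.1% in WT, at 1000 UMIs each. C5ar1 stood at 134 and 181 CPM in R241E against 274, 288 and 201, and C3ar1 at 201 and 173 against 144, 119 and 121. Neither overlapped between groups and neither was called (edgeR adjusted p = 0.325 and 0.562). C1qa stood at 512 and 1101 CPM against 412, 457 and 598, with overlap (0.65 ± 0.24, edgeR adjusted p = 0.336). Without R241E replicate 1 C1qa was called there (1.18 ± 0.23, edgeR adjusted p = 9.4e-04), the one R241E library left being the high one.

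In oligodendrocytes, 0.285% of 5613 genes were called, C4b among them and none of the 3 C1q chains tested. C4b had 130 and 62 UMIs in R241E, or 98.1 and 213 CPM, and 1, 4 and 15 UMIs in WT, or 2.95, 14.0 and 36.4 CPM. Both groups spread widely and did not overlap (log2 fold change 2.88 ± 0.43, edgeR adjusted p = 4.8e-04). With so few WT UMIs, C4b would not have passed the filter on low counts without the R241E libraries. Its call therefore follows in part from the filter. The C4b call was lost without WT replicate 2 (edgeR adjusted p = 0.117) and with DESeq2 (1.00). The log2 fold change was 4.06 without WT replicate 3 and 3.45 without R241E replicate 1. A C4b UMI was found in 7.27% and 14.1% of R241E nuclei and in 0%, 1.54% and 2.52% of WT nuclei, at 1000 UMIs each. The driver is described as acting in other cells, and whether recombination occurred in oligodendrocytes cannot be told from these counts.

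In astrocytes, where 0.43% of 7904 genes were called, C4b stood at 117 and 173 CPM in R241E, against 30.5, 107 and 104 in WT (log2 fold change 0.86 ± 0.35). The groups did not overlap, the gap to 2 of the WT libraries was small, and C4b was not called (edgeR adjusted p = 0.477). The 2 astrocyte clusters were shared unevenly, with 97.7% and 64.6% of R241E astrocytes in cluster 7 against 59.4%, 28.8% and 18.6% in WT. In fibroblasts, where 0.0172% of 5809 genes were called, Serping1 stood at 161 and 185 CPM against 203, 130.1 and 124, with overlap (0.31 ± 0.26, edgeR adjusted p = 0.932), and C4b had 12 UMIs in all. Monocytes or neutrophils, which were not tested, held 6 and 5 C4b UMIs in R241E and 1, 0 and 3 in WT.

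**Figure D5:**
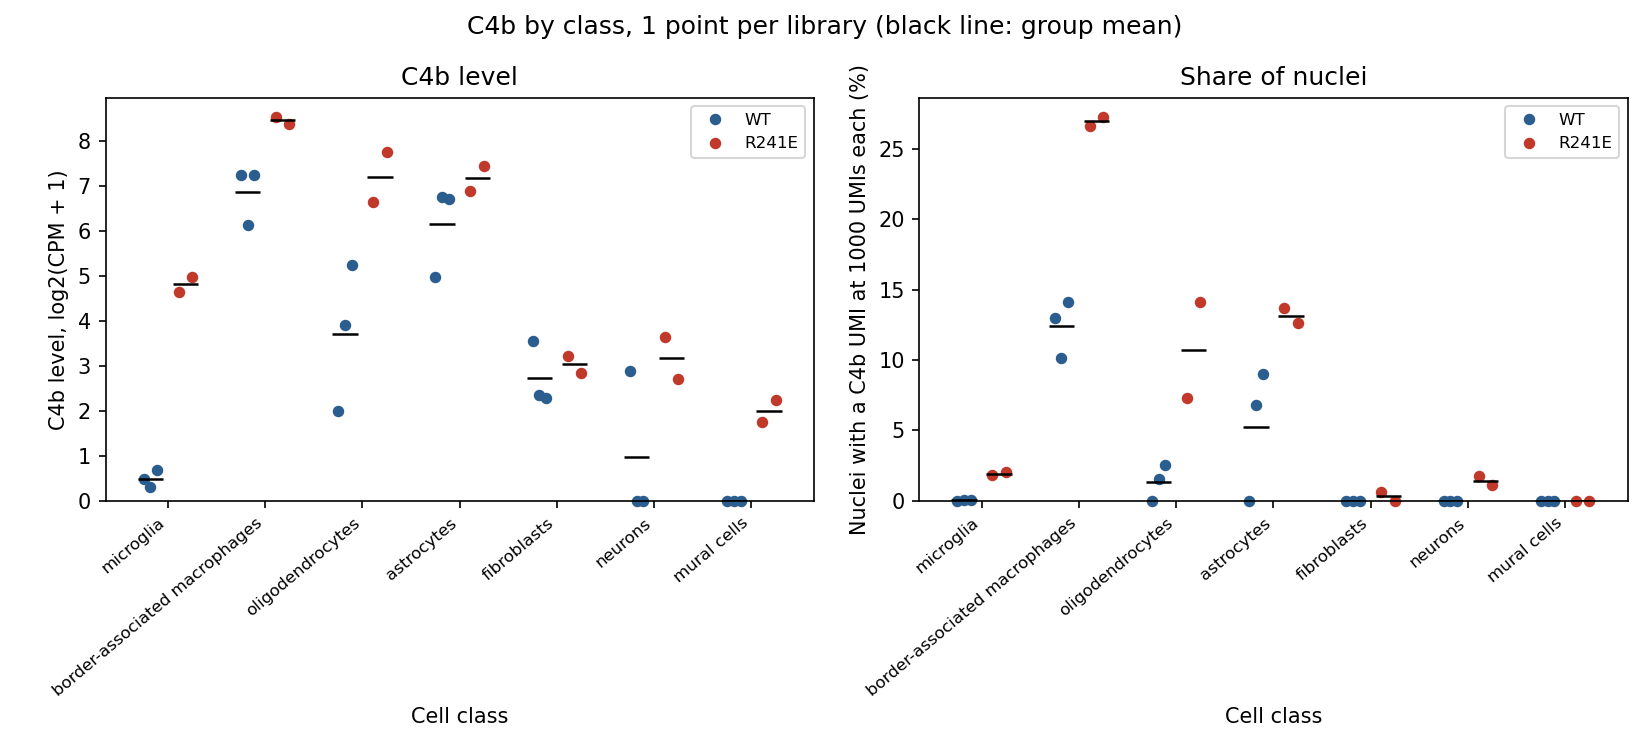
C4b in 7 cell classes, left as log2(CPM + 1) and right as the percentage of nuclei with a C4b UMI at 1000 UMIs each, 1 point per library (blue WT, red R241E) and black lines at group means. R241E lies above WT in microglia, border-associated macrophages, oligodendrocytes and astrocytes on both scales, while fibroblasts overlap.

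No member was called in neurons, mural cells, astrocytes or fibroblasts. In neurons 0.0138% of 7242 genes were called and in mural cells 0% of 3862, where edgeR gave 175 genes an unadjusted p under 0.05 and DESeq2 called 0. The C1q chains were tested in all 6 classes besides microglia and called in none. Their log2 fold changes lay between -0.81 for C1qb in astrocytes and 0.58 for C1qb in fibroblasts, apart from C1qa in border-associated macrophages (0.65) and the chains in neurons, at -1.82 for C1qa, -1.45 for C1qb and -1.37 for C1qc. Itgam in neurons, at -2.14 ± 0.85, was not called either (edgeR adjusted p = 0.373), and in border-associated macrophages it stood at 0.51 ± 0.29 (0.711). Whether the C4b difference itself varied between classes could not be decided with exact permutations of the library labels on log2(CPM + 1). The smallest possible exact permutation p was 0.1, so no pair could be called. The difference was 2.74 larger in microglia than in border-associated macrophages and 3.30 larger than in astrocytes (two-sided exact permutation p = 0.1 for each, 0.133 adjusted over 4 pairs). It was 0.84 larger than in oligodendrocytes (exact permutation p = 0.5). These sizes depend on the added 1, since C4b lay below 1 CPM in WT microglia. The log2 fold changes fitted with edgeR were 5.91 in microglia and 2.88 in oligodendrocytes. No conclusion is drawn from the permutations.

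The wider complement list held 56 genes, the members included, of which 22 were tested in microglia, 5 were called higher and 2 lower, where 9.32% of all genes tested were called. Without the 10 members, 1 was called higher and 2 lower of 15 tested. The median log2 fold change was 0.03 over the 22 genes tested and -0.13 over the 15 without the members, against -0.0044 over all genes tested. Among recognition molecules and their proteases, the 3 C1q chains were called of 5 tested. Masp2, a protease of the lectin pathway, stood at 9.74 and 12.4 CPM in R241E against 17.4, 18.9 and 17.97 and missed the threshold (-0.78 ± 0.24, edgeR adjusted p = 0.051). Of the central and alternative components C4b was called, and C2, which is cleaved next to C4, was tested and not called (0.75 ± 0.47, edgeR adjusted p = 0.420). Of the terminal components that form the membrane attack complex, none of the 7 reached the filter, and the most abundant had 33 UMIs in all kept nuclei.

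Among the regulators tested in microglia, Csmd3, which encodes a large protein with complement-control domains, was called lower. It stood at 4954 and 5095 CPM in R241E against 6578, 6246 and 5805 in WT, without overlap (log2 fold change -0.32 ± 0.09, edgeR adjusted p = 0.034). The Csmd3 call was lost when R241E replicate 1 (edgeR adjusted p = 0.242), R241E replicate 2 (0.159), WT replicate 1 (0.160) or WT replicate 2 (0.212) was left out, and with thinning (0.064). Among 7 receptors tested, Itgax, the alpha chain of complement receptor 4 (CD11c), was called higher, at 11.9 and 6.22 CPM against 2.02, 0.461 and 1.80 (2.86 ± 0.51, edgeR adjusted p = 0.0016). Its UMIs were 38 and 9 in R241E and 5, 2 and 6 in WT, most of them in R241E replicate 1. Itgax passed the filter only through the R241E libraries, so its call follows in part from the filter and supports little. The Itgax call was lost without R241E replicate 1 (log2 fold change 2.19 ± 0.85). Itgb2, the partner chain of Itgax, was tested and not called (0.12 ± 0.14, edgeR adjusted p = 0.696). In the 6 other classes no gene of the wider list was called apart from C4b.

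Genes whose levels followed each member most closely over the 35 class and library sums were named by Pearson's r on log2(CPM + 1) among 14082 genes, as a description, since the sums share libraries and cell classes. C1qa was followed most closely by C1qb (r = 0.961), Csf1r (0.945) and Gdi2 (0.941), and C3ar1 by Ms4a6b (0.957), Clec4a2 (0.943) and Pik3r6 (0.937). Serping1 was followed by Ptpru (0.881), Ddr2 (0.871) and March6 (0.870). C4b was followed less closely, by Eps15 (0.788), Apoe (0.786) and Fggy (0.748), and Cfb by Folr2 (0.756), Ms4a4c (0.742) and Siglec1 (0.723). For C3, with 0 UMIs in 4 of the 7 classes, the closest was Oasl1 at 0.614, ahead of Helz2 (0.604) and Soat2 (0.594).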

How the data were processed

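The authors deposited raw UMI counts per gene and nucleus, made with Cell Ranger 7.0.0 against mm10; Seurat is also named in the submitters' processing notes. The handling of intronic and multimapping reads is not given in the sources used here. The limits of the study's methods were applied: a minimum of 200 genes, upper limits of 4500 genes and 10000 UMIs, and a mitochondrial share below 5%. Nuclei were clustered with scanpy 1.11.5 and Leiden (resolution 1), leaving out the complement list, and named from 16 marker lists. Classes are therefore rebuilt, and doublets were treated only through the upper limits. Scrublet marked 0.442% of nuclei, too few to rely on, so the 158 highest scores were left out as an alternative. The members and all lists were chosen with earlier results of these data known.

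Counts were summed per library and class, and genotypes were compared with edgeR 4.0.16 (R 4.3.3; quasi-likelihood, TMM, filterByExpr, genotype as the only term; SE is the log2 fold change divided by the square root of F). DESeq2 1.42.0 was an alternative. The scripts were tested on simulated counts. The class of monocytes or neutrophils was not tested, since WT replicate 1 held 18 of its nuclei. Replicates were separate mice by their titles. Shares used nuclei thinned to 1000 UMIs, leaving out shallower nuclei (9 to 64 microglia per library), with exact Clopper-Pearson intervals and exact permutation tests. Intervals and floors cover counting error only. Genes described were the 10 members, called genes of the wider list, and the 3 genes most like each of 6 members; Masp2, C2, Itgb2 and the genes given beside C1q were named after their values were seen. Results on 2 further genes are not reported here. No batch or date was given by the labels. Gene positions and promoters came from RefSeq on GRCm38.p6, matched by symbol. The deposited feature and barcode lists served as names only.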

Additional observations from a re-analysis of the deposited data

Results flagged for a closer look

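C1qa differed between genotypes in opposite directions in 2 cell classes, without overlap between genotypes in either. Its log2 fold change was 0.98 in microglia and -1.82 in neurons, where the R241E libraries held 19.9 and 27.4 CPM and the WT libraries 30.8, 110.0 and 139 CPM, or 7 to 34 UMIs each. The neuronal value was not called (edgeR adjusted p = 0.304), and C1qa in neurons lies at the background level given above. The pair of classes was chosen for this difference, so its exact permutation test, 1 of the 4 pairs above (p = 0.1, the smallest possible), is not used. Neuronal clusters were shared unevenly, cluster 13 holding 3.28% and 5.26% of R241E neurons and 71.7%, 30.2% and 29.0% of WT neurons, and the part of this in the difference was not tested.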

How the results depend on the processing

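Of 62 alternative values for the counts, shares and interferon states, 40 stayed within 1.5 times or 1 SD of the reported value. The count of members called in microglia (4) was 1 with DESeq2 and 1 to 4 with 1 library left out, where a lone R241E library is assumed to vary like the WT libraries. The count of member and class pairs called outside microglia (2) was 0 with DESeq2, 0 with nuclei thinned to 1000 UMIs, 4 without the count filter, 4 with the replicate block and 0 to 3 with 1 library left out. Genes of the wider list called in microglia (7) were 4 with DESeq2, 11 without the filter and 3 to 7 with 1 library left out, and pairs outside microglia (2) were 0 with DESeq2, 0 with thinning, 7 without the filter, 6 with the block and 0 to 3 with 1 library left out. The number of members with non-overlapping higher shares (4) was 7 without thinning, 2 at 500 UMIs and 4 to 6 with 1 library left out. Leaving out a library can only keep or raise this count, so those values, which are among the 40, do not test it. The mean log2 difference in C4b between interferon states (1.46) was 2.20 when nuclei were thinned to 500 UMIs. Itgam in microglia turned from -0.07 to 0.028 with thinning, far from the threshold. The causes were not tested, apart from the smaller number of pairs tested after thinning (7 against 26).

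The mouse numbers do not pair the samples: only 2 pairs exist, and deviations of same-numbered microglial sums correlated at 0.10 and -0.02. With the replicate block, 4 members and 8 genes of the wider list were called in microglia, and C4b in astrocytes (edgeR adjusted p = 0.0053) and C1qa in border-associated macrophages (0.0060) were called besides.

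Depth limits C3, Cfb and Serping1 in microglia, where 15 UMIs or fewer per gene were counted, and C4b in WT microglia. Only 2 R241E mice were available, so a single library can decide a call.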
